A study of Mus musculus with 9 samples.

Results

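The sites described here are narrow H3K27me3 sites of mouse embryonic stem cells that carry Suz12 but no listed Phf19, called narrow Suz12-only sites below. They were chosen from the list of H3K27me3 sites in control cells by 3 conditions: a width (end minus start) below 3000 bp, at least 1 base shared with a Suz12 site, and no base shared with a Phf19 site. Of 8280 control sites, 2911 met all 3 conditions, 35.2% of the list and 51.4% of the 5665 control sites below 3000 bp. They covered 5.49 Mb, or 22.6% of the 24.3 Mb under control H3K27me3 sites. Width and the presence of Suz12 and Phf19 chose these sites and are given as descriptions. The list of H3K27me3 sites in Phf19-depleted cells was not used to choose them.

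The study measured chromatin occupancy by ChIP-seq, in which antibody-bound DNA is sequenced, in the feeder-free E14Tg2A embryonic stem cell line. Suz12 (1 library) and Phf19 (2 replicates, of which the list keeps sites found in both) were profiled in wild-type cells. H3K27me3 was profiled in control cells that carry a random hairpin RNA (shRd, 1 library, labelled wild type) and in cells depleted of Phf19 by a hairpin against it (shPhf19, 1 library). All cells were grown in serum with leukemia inhibitory factor, and the sources used here do not say how many hairpins or clones were used.

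Polycomb repressive complex 2 (PRC2) places the methyl groups of H3K27me3, a mark of silenced genes, and Suz12 is one of its core subunits. Phf19 is a Polycomb-like protein that associates with PRC2 and binds methylated lysine 36 of histone H3 through its Tudor domain. In embryonic stem cells PRC2 is best known at CpG-rich promoters of developmental regulators, where it can form broad H3K27me3 domains. A narrow site with Suz12 and without Phf19 is thus a place where the complex and its mark were listed together over a short stretch, with no Phf19 site passing in both replicates.

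The lists give a chromosome, a start and an end per site, and no height, score or read count. Depth is therefore unknown, and a site that is not listed may lie just under the peak threshold: no absence of the mark can be read from it. None of the lists other than that of Phf19 has a replicate, so no p-value is given. Shares carry an exact Clopper-Pearson 95% interval and differences of shares a Newcombe 95% interval. Both cover counting error only and take each site as independent, which neighbours are not. The lists hold no expression or marker values, so neither the depletion of Phf19 nor the cell type was tested here. Per the labels, the shRd and shPhf19 libraries carry different H3K27me3 antibody catalogue numbers, and the part of the antibody in any difference between them was not tested.

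The narrow Suz12-only sites had a median width of 1846 bp (interquartile range 1450 to 2318), and 72 were under 1000 bp. Narrow control sites with both Suz12 and Phf19 were wider in the median, at 2260 bp, and those with neither factor narrower, at 1495 bp. The widest sites below the limit lay at chr1:50984334-50987333 (2999 bp), chr11:24063734-24066731 (2997 bp) and chr3:115416740-115419737 (2997 bp), the next at chr5:32438004-32441001 (2997 bp) and chr11:62543311-62546305 (2994 bp). Just beyond the limit, and otherwise alike, were chr7:80517277-80520277 (3000 bp), chr15:80401948-80404950 (3002 bp) and chr16:26966854-26969856 (3002 bp). The widths run on without a break at the limit, and none of these 8 sites was listed in depleted cells. The narrowest site was chrX:5683914-5684292, with 378 bp, all of it inside a 591 bp Suz12 site. Next came chr16:33001845-33002402 (557 bp, 83.8% under Suz12), chr15:88784270-88784912 (642 bp, 91.1%), chr4:53873401-53874054 (653 bp, 69.4%) and chr10:14480504-14481282 (778 bp). The last of these met its Suz12 site at 11 bases only, 1.41% of its length. None of these 5 was listed in depleted cells. Over all control sites below 3000 bp 2.63% were, so nothing is read from such counts among a few named sites.

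Suz12 lay over one side of most narrow Suz12-only sites. In 2304 of the 2911 (79.1%) a single Suz12 site crossed 1 end of the H3K27me3 site and stopped inside it. In 406 (13.9%) the Suz12 site lay wholly inside, in 138 (4.74%) the H3K27me3 site lay wholly inside the Suz12 site, and 63 met 2 or 3 Suz12 sites. Among wide sites (3000 bp or more) with Suz12 and no Phf19 the order was the other way round, with 28.4% crossed at 1 end and 59.1% holding the Suz12 site inside. Width chose these classes, and a wide site has more room for a Suz12 site inside. Median widths were 2098 bp for Suz12 and 3820 bp for H3K27me3 at wide sites, against 1745 and 1846 bp at narrow Suz12-only sites. The contrast is thus only a description. Narrow sites with Suz12 and Phf19 were crossed at 1 end in 71.7% of cases, closer to the narrow Suz12-only sites than to the wide ones.

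Suz12 covered a median of 51.9% of a narrow Suz12-only site (interquartile range 35.5 to 69.6). The overlap was under 10% of the length at 102 sites and over 90% at 253. The median distance between the midpoints of the H3K27me3 site and its widest Suz12 site was 791 bp, and in 1335 cases (45.9%) the Suz12 site was the wider of the pair. Altogether 2564 of the 8054 Suz12 sites met at least 1 narrow Suz12-only site. Their median width was 1661 bp, against 1529 bp for all other Suz12 sites and 932 bp for the 2282 Suz12 sites with neither control H3K27me3 nor Phf19. A set of 407 Suz12 sites each met 2 or 3 narrow Suz12-only sites.

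The side that Suz12 covered faced the next H3K27me3 site. Another control H3K27me3 site lay within 1 kb of 1226 narrow Suz12-only sites (42.1%, 40.3 to 43.9), a share above that of narrow sites with neither factor (33.1%, 31.2 to 35.1) and of wide sites with Suz12 and no Phf19 (28.6%, 26.0 to 31.4), and below that of narrow sites with Suz12 and Phf19 (58.7%, 54.1 to 63.1). Of the 1226, 1154 had such a neighbour on 1 side only. Among these, 1031 had a single Suz12 site across 1 end, and in 985 of them (95.5%, 94.1 to 96.7) it was the end facing the gap. The conditions that chose the sites do not set which end Suz12 crosses. The same side was taken in 191 of 194 narrow sites with Suz12 and Phf19 (98.5%, 95.5 to 99.7) and in 138 of 151 wide sites with Suz12 alone (91.4%, 85.7 to 95.3), so the arrangement was not particular to the narrow Suz12-only sites.

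With each site divided into 10 equal bins, Suz12 covered 91.1% of the bases in the bin next to the gap and 10.4% in the bin farthest from it. The fall was continuous along the site. Suz12 was heavier in the 5 bins nearer the gap at 1035 of the 1154 sites and lighter at 69. At the 1685 sites with no neighbour within 1 kb, coverage rose from 44.9% in the first bin to 64.1% in the fifth and fell to 43.9% in the last. These sites were left as they lie on the chromosome, which averages both orientations. Even there 1226 sites (72.8%) had Suz12 across 1 end, reaching a median of 645 bp beyond it.

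**Figure D1:**
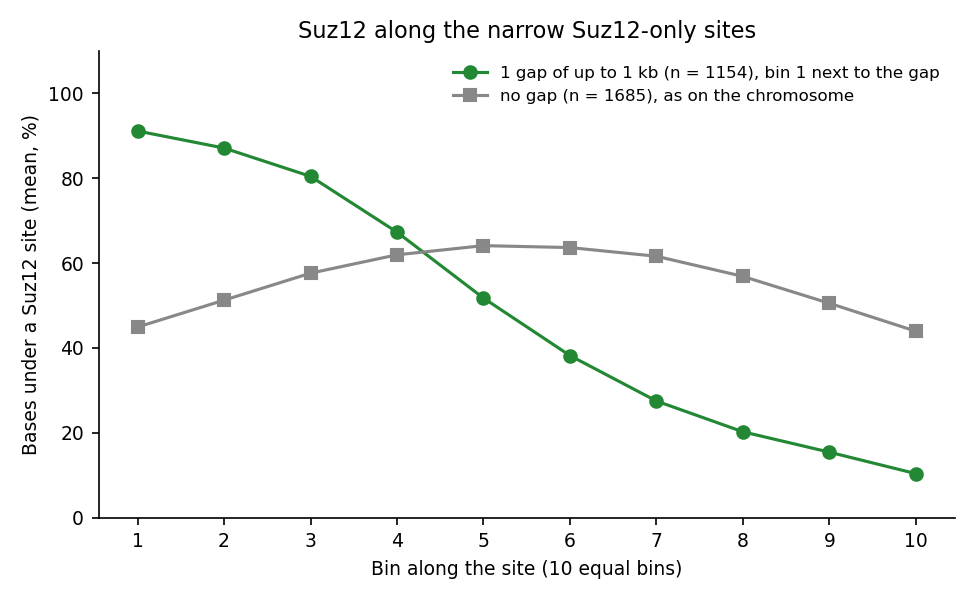
Mean share of bases under a Suz12 site (percent, y axis) in 10 equal bins along the narrow Suz12-only sites (x axis). Green points are the 1154 sites with another control H3K27me3 site within 1 kb on 1 side, turned so that bin 1 is next to the gap; coverage falls from 91.1% to 10.4%. Grey squares are the 1685 sites without such a neighbour, in chromosome order, with a low peak of 64.1% in the middle.

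In 401 cases the gap had a narrow Suz12-only site on both sides. These gaps were short, with a median of 205 bp (interquartile range 83 to 422), and in 375 of them (93.5%, 90.6 to 95.7) a single Suz12 site spanned the gap and reached both H3K27me3 sites. Each of the flanking sites carries Suz12 by choice, which favours such a bridge. Suz12 covered 95.6% of the gap bases, against 52.6% of all bases in the narrow Suz12-only sites. Phf19 was listed in 2 of the 401 gaps. The choice of sites without Phf19 on both sides leaves room only for a Phf19 site that fits inside the gap, so nothing is read from this count.

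The narrow width therefore depends on whether sites across a short gap are counted apart. Joined across gaps of up to 1 kb, 1105 of the 2911 (38.0%, 36.2 to 39.8) fell in a domain of 3000 bp or more, and 261 of these in a domain that also held Phf19. Over all control sites below 3000 bp the share in such a domain was 36.6% (35.4 to 37.9). It was 30.7% (28.8 to 32.6) at narrow sites with neither factor and 56.6% (52.1 to 61.1) at those with Suz12 and Phf19. This was therefore not particular to the group. The joined domains of the narrow Suz12-only sites had a median width of 4390 bp. The widest narrow Suz12-only site, chr1:50984334-50987333, was separated by 23 bp from its neighbour and belonged to a joined domain of 5876 bp. Of the 401 pairs, 343 spanned 3000 bp or more.

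**Figure D2:**
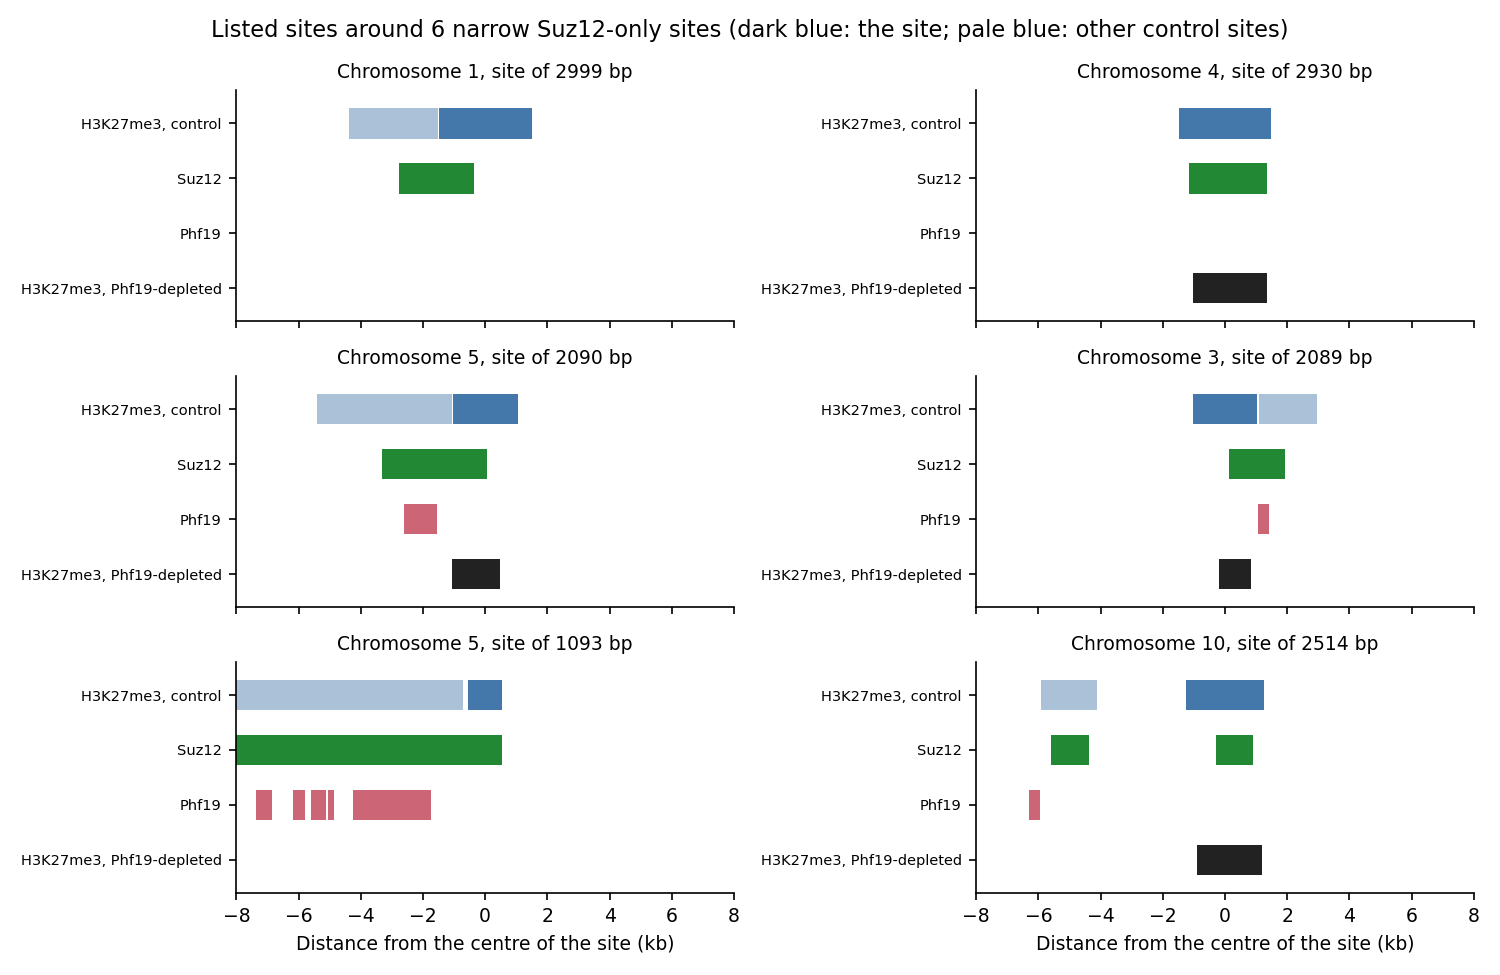
Listed sites within 8 kb of 6 narrow Suz12-only sites that are named in the text, as distance from the site's centre in kb (x axis), with 1 row for each of the 4 lists. Dark blue bars are the sites themselves, pale blue bars other control H3K27me3 sites, and green, red and black bars Suz12, Phf19 and depleted-cell H3K27me3 sites. On chromosome 1 (2999 bp) a Suz12 site bridges a gap of 23 bp, and on chromosome 5 (1093 bp) the 9.62 kb Suz12 site, cut at the edge of the panel, reaches over the whole site.

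The longest Suz12 sites touching this group extended far beyond the narrow sites. The site chr5:75552226-75553319 (1093 bp) lay wholly under a Suz12 site of 9.62 kb and at 165 bp from its neighbour, in a joined domain of 13.8 kb. At chr15:76352972-76355446 (2474 bp) a Suz12 site of 8.80 kb covered 69.5%, and at chr10:84215191-84217794 (2603 bp) one of 7.02 kb covered 36.1%. All 3 had a Phf19 site within 3 kb, at 1.20, 2.74 and 1.27 kb, and none was listed in depleted cells.

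Most narrow Suz12-only sites were far from Phf19. The median distance to the nearest Phf19 site was 169 kb (interquartile range 39.7 to 492), and 339 sites were over 1 Mb away. A Phf19 site lay within 10 kb of 426 sites (14.6%, 13.4 to 16.0), which was close to the shares for narrow sites with neither factor (15.3%, 13.8 to 16.8) and for wide sites with Suz12 alone (15.9%, 13.8 to 18.2). Within 1 kb the shares were less alike. A Phf19 site lay there at 221 sites (7.59%), against 2.19% of narrow sites with neither factor and 4.38% of wide sites with Suz12 alone. The cause of this difference was not tested. At 252 sites (8.66%, 7.66 to 9.74) the Suz12 site itself carried Phf19 outside the narrow H3K27me3 site, against 4.29% (3.18 to 5.65) of wide sites with Suz12 alone. Both classes hold no Phf19 inside the H3K27me3 site by choice. The Suz12 site lay wholly inside 13.9% of the narrow and 59.1% of the wide sites, where no such Phf19 site has room. Nothing is therefore read from this difference.

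The 5 sites nearest to Phf19 lay 12 bp or less from it. At chr19:16511488-16513381 and chr4:47219368-47221021 a Phf19 site abutted the H3K27me3 site, sharing no base. At chr3:28678232-28680321 the Phf19 site lay 1 bp away, at chr2:29702095-29703283 11 bp and at chr15:85499417-85501031 12 bp. All 5 had another control site within 1 kb, and of the 5 only the site on chromosome 3 was still listed in depleted cells.

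**Figure D3:**
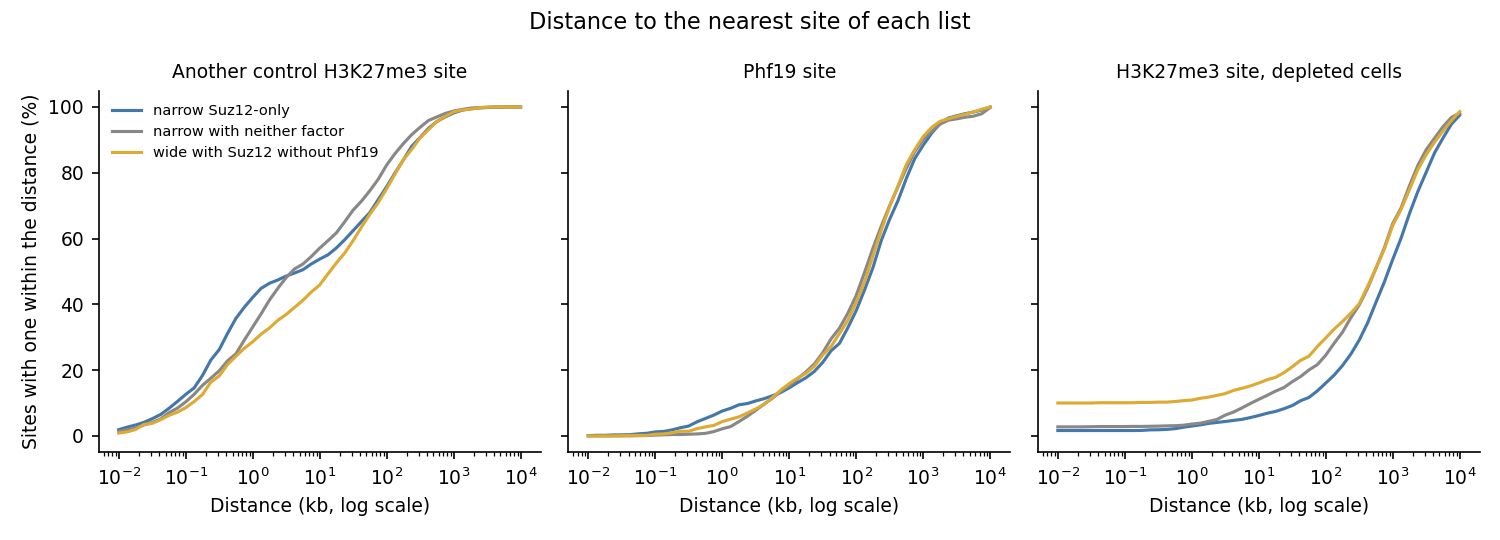
Cumulative share of sites (percent, y axis) with another control H3K27me3 site, a Phf19 site or a depleted-cell H3K27me3 site within the distance on the x axis (kb, log scale), for narrow Suz12-only sites (blue), narrow sites with neither factor (grey) and wide sites with Suz12 and no Phf19 (yellow). At 1 kb the blue curve of the left panel stands at 42.1%, above the yellow one at 28.6%, and at 10 kb of the middle panel they stand at 14.6% and 15.9%.

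The narrow Suz12-only sites were spread over the autosomes and chromosome X. They made up between 27.2% of the control sites of chromosome 18 (82 of 301) and 41.8% of those of chromosome 1 (210 of 502), 38.7% on chromosome X (48 of 124) and none of the 9 control sites of chromosome Y. Grouped where they lay under 50 kb apart, they formed 2178 runs, of which 1605 held a single site and 11 held 5 or more. The longest run, at chr17:46580953-46692684, held 8 in 112 kb together with 7 Suz12 sites and 1 Phf19 site. Runs of 7 lay at chr17:36280646-36353159, with 9 Suz12 sites and no Phf19 site, and at chr19:44713647-44814637, with 10 Suz12 sites and 4 Phf19 sites. In the first and the last of these runs 1 site was still listed in depleted cells, and in the other none.

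The comparison of shRd with shPhf19 cells asks what becomes of H3K27me3 when Phf19 is depleted. A control site is called still listed where a site of the depleted cells overlaps it by at least 1 base, which held for 8.96% of all control sites and for 2.63% of those below 3000 bp. Over all control sites it was 10.3% where a gap of up to 1 kb counted as overlap, and 8.89% where at least 50% of the shorter site had to be shared. Of the 2911 narrow Suz12-only sites, 48 were still listed (1.65%, 1.22 to 2.18) and 2863 (98.4%) were not. The list of depleted cells held 1180 sites over 2.07 Mb, against 8280 over 24.3 Mb in control cells. Distances to so short a list are long in any class. Within 562 kb of such a site lay 40.6% of all narrow Suz12-only sites and 51.0% of narrow sites with neither factor. For wide sites with Suz12 and no Phf19 it was also 51.0%. The 2863 sites no longer listed lay at a median of 888 kb from one, and 40 of them had one within 1 kb. At 66 of them the Suz12 site did meet a depleted-cell site elsewhere along its length.

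The share still listed was higher at wider sites within the group. It was 0 of 72 below 1000 bp (interval up to 4.99%), 1 of 735 from 1000 to under 1500 bp (0.136%, 0.00344 to 0.756) and 9 of 896 from 1500 to under 2000 bp (1.00%, 0.460 to 1.90). It was 23 of 737 from 2000 to under 2500 bp (3.12%, 1.99 to 4.65) and 15 of 471 from 2500 to under 3000 bp (3.18%, 1.79 to 5.20). Above the limit, sites with Suz12 and no Phf19 went on from 5.85% (4.15 to 7.97) at 3000 to under 4000 bp to 35.1% (20.2 to 52.5) at 7500 bp or more. Over all wide sites of that kind 112 of 1118 were still listed (10.0%, 8.32 to 11.9), a difference of -8.37 percentage points for the narrow ones (-10.3 to -6.66). From 1000 to under 1500 bp up to 7500 bp or more, sites with Suz12 and Phf19 went from 3.28% to 74.6%. Those with neither factor went from 2.24% to 42.9%, so a rise over this range was not particular to this group. Below 3000 bp, however, sites with neither factor did not rise steadily. Their share was 6.62% (3.22 to 11.8) below 1000 bp and 1.74% (0.869 to 3.08) from 1500 to under 2000 bp. It was 3.47% (1.74 to 6.12) from 2000 to under 2500 bp and 5.16% (2.25 to 9.92) from 2500 to under 3000 bp. A longer site has more bases to share, and the part of this in the difference was not tested.

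Narrow sites that also carried Phf19 stayed listed more often. Of 484 such sites, 39 were still listed (8.06%, 5.79 to 10.9), a difference of -6.41 points for the narrow Suz12-only sites (-9.21 to -4.24). The direction was the same in each of the 4 width classes from 1000 bp up, with differences of -3.14 points (-11.1 to -0.685), -4.88 (-10.7 to -1.74), -3.80 (-9.61 to -0.226) and -9.32 (-15.3 to -4.68) in order of width. With the width classes weighted as in the narrow Suz12-only sites, the difference was -4.76 points. Narrow sites with Phf19 also lay within 1 kb of another control site more often (58.7% against 42.1%). When neighbours within 1 kb were merged before any step the difference was -1.68 points (-4.97 to -0.00600).

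Against narrow sites with neither factor the difference was small, and its interval held 0 under some settings and lay below 0 under others. Of 2237 such sites 62 were still listed (2.77%, 2.13 to 3.54), a difference of -1.12 points for the narrow Suz12-only sites (-1.99 to -0.319). Without chromosome 14 it was -0.208 points (-0.993 to 0.529). The interval also held 0 on autosomes alone (-0.651, -1.47 to 0.115), where at least 50% of the shorter site had to be shared (-0.376, -1.13 to 0.441), with narrow set below 4000 bp (-0.759, -1.66 to 0.0827) and with only Suz12, Phf19 and shPhf19 sites at or above their first quartile of width (-0.584, -1.25 to 0.0602). The interval lay below 0 with narrow set below 2000 bp (-1.85, -2.72 to -1.06) and with neighbours within 1 kb merged (-2.10, -3.20 to -1.09). It also did where a gap of up to 1 kb counted as overlap (-1.37, -2.42 to -0.401). Within width classes the difference was largest at the narrow end, at -6.62 points (-11.8 to -0.743) below 1000 bp and -2.11 (-3.25 to -1.12) from 1000 to under 1500 bp. In the 3 classes above, all intervals held 0. Without chromosome 14, 0 of 65 narrow Suz12-only sites below 1000 bp were still listed against 10 of 148 with neither factor, and 0 of 704 against 15 of 934 from 1000 to under 1500 bp.

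**Figure D4:**
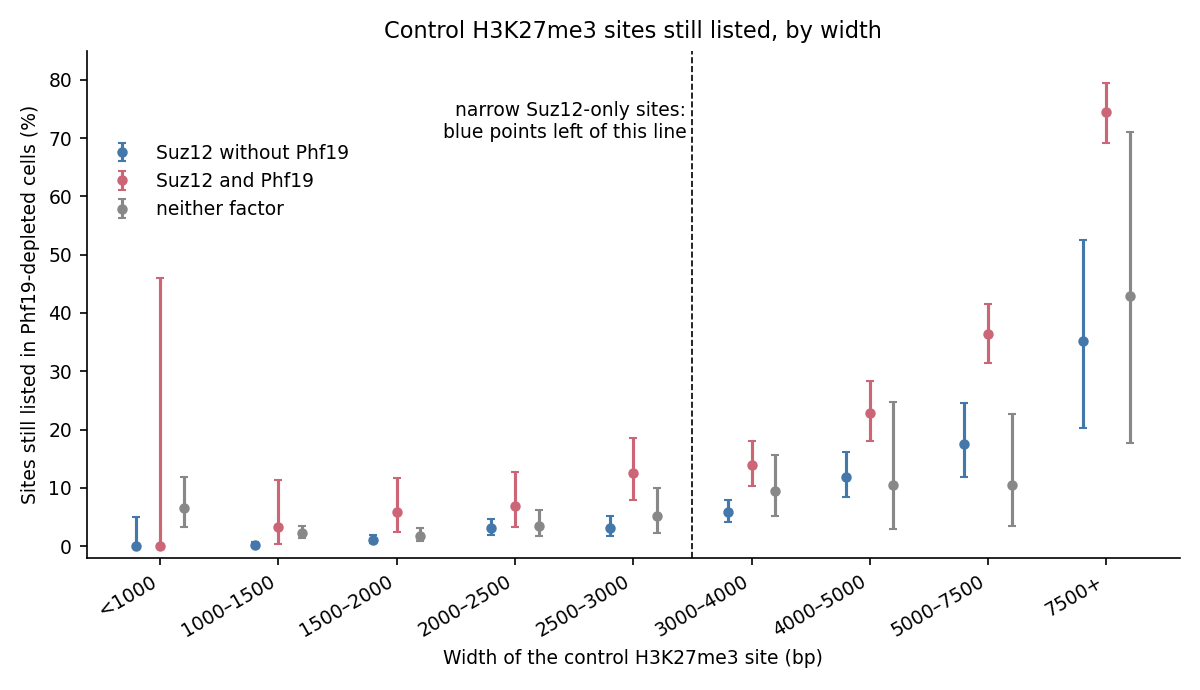
Share of control H3K27me3 sites still listed in Phf19-depleted cells (percent, y axis) by width of the control site (bp, x axis), for sites with Suz12 and no Phf19 (blue), with both (red) and with neither (grey); bars are exact 95% intervals for counting error. The narrow Suz12-only sites are the blue points left of the dashed line, between 0% and 3.18%, below the red points from 1000 bp up.

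The 48 sites still listed were wider than the others of the group and kept over 50% of their length in the median. Their median control width was 2356 bp, against 1837 bp for those no longer listed, and the narrowest had 1433 bp. Each met exactly 1 depleted-cell site, with a median width of 1270 bp (863 to 2385), against 1472 bp for the depleted-cell sites elsewhere. These sites covered a median of 53.7% of the control width (interquartile range 47.0 to 63.6, range 35.1 to 100), and 62.3 kb of the 110 kb the 48 spanned. The covered share was 56.4% (42.3 to 66.5) at narrow sites with Phf19 and 92.3% (79.9 to 99.6) at those with neither factor. In 12 cases the depleted-cell site ran past an end of the control site.

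The part that stayed listed lay under Suz12 more than the rest of the same site. Within 47 of the 48 sites, which were not covered whole, the bases still listed were under Suz12 to a median of 76.8%, and the rest of the site to 33.4%. The still listed part had the larger share under Suz12 in 35 of 47, the smaller in 10 and the same in 2. Over the whole group Suz12 coverage differed by place in the site. It was 91.1% next to a gap and 10.4% farthest from it, and without a gap 64.1% in the fifth bin and 44.9% in the first. The part of place in this difference was not tested. Of the 48 depleted-cell sites 46 met a Suz12 site. They were found by their overlap with sites that carry Suz12 by choice, which favours this count, so nothing is read from it. Among the 24 still listed sites with a neighbour within 1 kb on 1 side, the covered part lay nearer the gap in 16, nearer the far end in 7 and in the middle in 1.

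**Figure D5:**
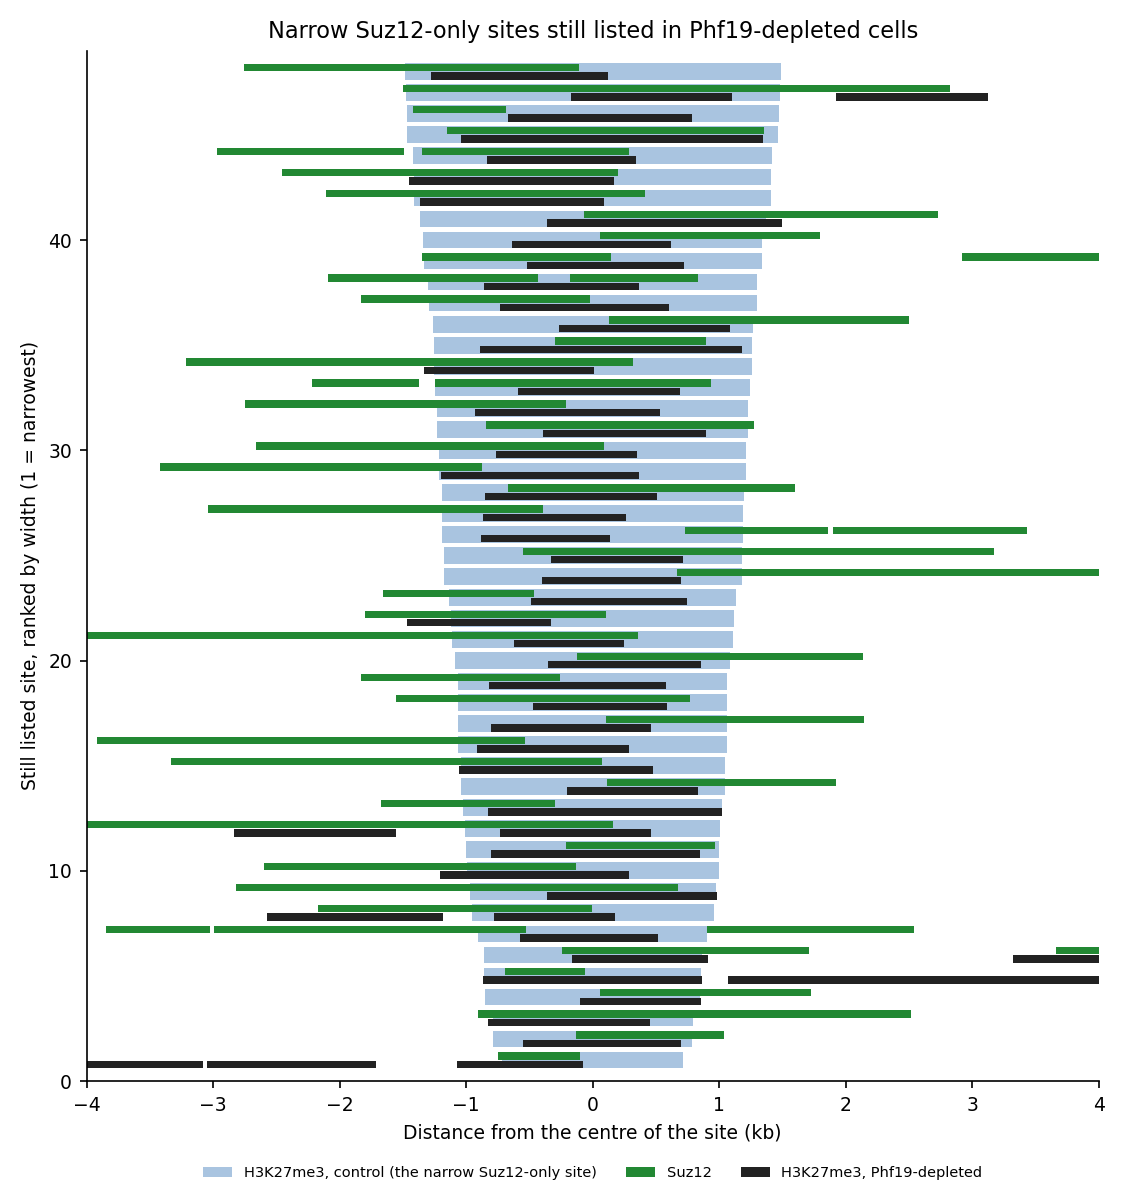
The 48 narrow Suz12-only sites still listed in Phf19-depleted cells, 1 per row and ranked by width from the narrowest at the bottom (y axis), with distance from the site's centre in kb (x axis). Pale blue bars are the control sites, green bars Suz12 sites and black bars H3K27me3 sites of depleted cells, all within 4 kb. In 35 of 47 rows the part under the black bar has a larger share under Suz12 than the rest of the site.

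Of the 10 still listed sites with the greatest covered length, the first was chr4:118218939-118221869 (2930 bp), of which 2385 bp (81.4%) stayed listed and 85.7% lay under Suz12. At chr10:80804518-80807032 (2514 bp) 2070 bp stayed listed, and at chr10:79642274-79644323 (2049 bp) 1850 bp, or 90.3%. At chrX:166407543-166409262 (1719 bp) the whole site was covered. This site stood apart from the others: its nearest Phf19 site was 8583 kb away, and with its neighbours it formed a joined domain of 12.8 kb. At chr1:13113683-13116417 (2734 bp) and chr12:77276975-77278978 (2003 bp) the nearest other control site was 129 and 22.5 kb away, and 63.2% and 82.4% of the length stayed listed. At the remaining 4 another control site lay within 1 kb. They were chr9:72773393-72776218 (2825 bp, 56.0% covered), chr19:46211835-46214260 (2425 bp, 64.5%), chr5:64551918-64554008 (2090 bp, 73.0%) and chr2:151528264-151530722 (2458 bp, 59.4%). The last 2 were also the nearest of the 10 to Phf19, at 495 and 179 bp. The 48 lay on 17 chromosomes, with 10 of them on chromosome 4, where 203 of the 2911 were. Of all control sites, 57 of 588 on chromosome 4 were still listed, and 742 of 8280 (8.96%) over all chromosomes. Chromosome 4 was picked from these counts, so nothing is read from its number.

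Within the group, a neighbouring H3K27me3 site went with staying listed, while no difference by the amount of Suz12 overlap was detectable. Of 1565 sites with another control site within 10 kb 36 were still listed (2.30%, 1.62 to 3.17), against 12 of 1346 without (0.892%, 0.461 to 1.55), a difference of 1.41 points (0.493 to 2.36). Weighted over 5 width classes it was 1.48 points. Among sites below 2000 bp it was 0.357 points (-0.489 to 1.19), and with only Suz12, Phf19 and shPhf19 sites at or above their first quartile of width 0.789 points (-0.0365 to 1.61). Across the gaps of up to 1 kb, counted from each narrow Suz12-only side, the neighbour was still listed in 5 cases and not in 25 where the site itself was, and in 84 and 1184 cases where it was not.

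Within 10 kb of Phf19, 11 of 426 sites were still listed (2.58%, 1.30 to 4.57), and farther away 37 of 2485 (1.49%, 1.05 to 2.05). The difference of 1.09 points had an interval from -0.170 to 3.12 that holds 0. The interval lay above 0 with near set to 5 kb (1.80, 0.278 to 4.29), where a gap of up to 1 kb counted as overlap (2.41, 0.468 to 5.48) and with narrow set below 4000 bp (1.46, 0.0381 to 3.50). Sites at or above the median share of length under Suz12 were still listed in 1.72% of cases and those below it in 1.58%, a difference of 0.136 points (-0.819 to 1.10). By how Suz12 lay, the share was 1.69% (1.21 to 2.31) where it crossed 1 end, 1.48% (0.544 to 3.19) where it lay inside and 1.45% (0.176 to 5.14) where it spanned the whole site. By the width of the Suz12 site, in 4 classes of about equal size, the shares were 1.10% (0.476 to 2.16), 0.962% (0.387 to 1.97), 1.38% (0.664 to 2.53) and 3.14% (2.0 to 4.68). The H3K27me3 sites also widened across these classes, from a median of 1720 bp to 2011 bp.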

How the data were processed

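ChIP-seq site lists were deposited for Phf19, Suz12 and H3K27me3 in shRd and shPhf19 cells; each line holds a chromosome, a start and an end. The submitters' processing notes name Bowtie 0.12.7, MACS 1.4.1 and mm9 but no role for them; the sources used here give neither threshold nor control library nor later filters. The Phf19 list keeps sites of both replicates, per the design text. H3K36me2, H3K36me3 and IgG libraries were not analysed here.

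Coordinates are printed as listed, on mm9; the sources used here do not say whether starts count from 0 or 1. No mm9 sequence or annotation was used and no coordinates were converted, so genes and sequences are not named. Sites overlapped when sharing at least 1 base. Sites were named by a fixed rule: the 5 widest and the 5 narrowest, 3 on either side of the width limit, the 10 with the largest covered length, the 5 nearest Phf19, the 3 with the longest Suz12 site and the 3 longest runs. The conditions that define the group, the compared classes and the rules were chosen with earlier results of these data known. The gap, bin and Suz12-width descriptions were added after these data were seen. Overlaps and intervals were tested on simulated lists and overlap counts checked with bedtools. The intervals came from scipy 1.17.1 (Clopper-Pearson) and statsmodels 0.14.6 (Newcombe), run in Python 3.11.15 with pandas 2.3.3.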

Additional observations from a re-analysis of the deposited data

How the results depend on the processing

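Of 95 alternatives, 10 were added after the data were seen. Inside the 95% interval of the main value lay 69, 26 moved beyond it and 0 reversed a difference whose interval excluded 0. For the medians this was a 95% interval of the median taken from ranks, not the interquartile range given above. It ran from 49.7 to 59.4% for the covered share of still listed sites and from 50.6 to 53.0% for the share under Suz12. The share across the end facing a gap stayed between 95.1% and 96.1% in its 5 alternatives. The share still listed was 2.31% where a gap of up to 1 kb counted as overlap, 0.587% and 2.40% with narrow set below 2000 and 4000 bp, 1.20% with neighbours within 1 kb merged and 1.12% with only Suz12, Phf19 and shPhf19 sites at or above their first quartile of width. Its difference from narrow sites with Suz12 and Phf19 was -9.70 points with the 1 kb gap and -1.68 points when merged. From narrow sites with neither factor it was -0.208 points without chromosome 14, -0.148 points with width classes weighted as well, and -2.10 points when merged. From wide sites it was -5.86 and -13.1 points with narrow below 2000 and 4000 bp. The difference by neighbours within 10 kb was 2.65 points with the 1 kb gap and 0.357 points below 2000 bp. That by Suz12 share was -0.888 points where 50% of the shorter site had to be shared. The covered share of still listed sites was 46.3% with the 1 kb gap, 62.4% below 2000 bp and 47.6% below 4000 bp. The share under Suz12 was 62.3% with 50% shared, 49.2% with the 1 kb gap, 55.2% when merged and 54.0% with sites above the first quartile. Phf19 lay near 6.86% when merged, 13.2% above the first quartile, 11.7% within 5 kb and 27.2% within 50 kb. For these values the cause was not tested. Omitting either Phf19 replicate was not run, since the list used holds their common sites. A stricter peak threshold could only be stood in for by width, since the lists hold no score. No paired analysis was possible because each H3K27me3 state has 1 library.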
